A study of Homo sapiens with 6 samples.

Results

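The keratin genes examined here are KRT7, KRT8, KRT10, KRT15, KRT17, KRT18, KRT19, KRT80, KRT81 and KRT86, which were taken by gene symbol from a table of 61806 genes that also holds 44 other keratin genes. RNA-seq of mRNA was performed on MDA-MB-231, an established human line of triple-negative breast cancer (TNBC), in 3 lines with 2 libraries each. By the sample titles the lines were shNC, a control shRNA, and shHMGA2-1 and shHMGA2-2, each with an shRNA against HMGA2, a chromatin protein that binds AT-rich DNA. The table names the shNC columns WT and the shHMGA2-1 columns SH2, and it names the shHMGA2-2 columns in another way. Whether shNC was a control shRNA line or unmodified cells could not be settled from the labels. Nor could which of the study's HMGA2 shRNAs each knockdown line carried, and the groups follow the titles. The study's methods describe lentiviral shRNA vectors and puromycin selection. They also describe growing the knockdown cells from a single clone and do not state this separately for shNC. A difference between lines and an effect of an shRNA therefore cannot be told apart, and nothing in the labels says that libraries of a line came from separate cultures, so p-values measure only the spread between these libraries. Library totals were 16461178 to 17167293 counts, and the counts of the libraries of a line differed by 2.03 (shNC), 6.21 (shHMGA2-1) and 2.91 (shHMGA2-2) times the variance of random sampling, so no library was a copy of another.

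Keratins are the intermediate filament proteins of epithelial cells. Each filament is built from pairs of an acidic type I chain and a basic type II chain, so an epithelial cell makes at least a single keratin of each type, and unpaired chains are degraded. KRT8 and KRT18 form the pair of simple epithelia, with KRT7 and KRT19 added in ducts and glands, as in the luminal layer of the breast. KRT15 and KRT17 belong to basal and stratified epithelia, KRT10 to the upper layers of the epidermis, and KRT81 and KRT86 to hair. KRT80 is a type II keratin found in many epithelia. Of the 10 genes, 5 encode type I chains (KRT10, KRT15, KRT17, KRT18, KRT19) and 5 type II chains (KRT7, KRT8, KRT80, KRT81, KRT86).

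In the table, which uses GRCh38.p13, the type II genes lay on chromosome 12 together with KRT18, and the other type I genes lay on chromosome 17. KRT80 (52168996 to 52192014, minus strand), KRT7 (52232520 to 52252186, plus), KRT86 (52249300 to 52309163, plus) and KRT81 (52285913 to 52291534, minus) formed a cluster, and the whole span of KRT81 lay inside that of KRT86. KRT8 (52897187 to 52949954, minus) followed 605652 bases after KRT81 and overlapped KRT18 (52948871 to 52952906, plus) by 1084 bases on the opposite strand. On chromosome 17, KRT10 lay at 40818117 to 40822614, KRT15 at 41513745 to 41522529, KRT19 at 41523617 to 41528308 and KRT17 at 41619442 to 41624842, all on the minus strand. Only 1087 bases separate KRT15 from KRT19.

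The likeness of the genes sets how far their reads can be told apart. Over the GENCODE 29 coding sequences (GRCh38) most pairs were only moderately alike, with 76.9% identical bases for KRT7 and KRT8 and 67.1% for KRT8 and KRT18. The exception among the 10 genes was the pair of hair keratins. KRT81 and KRT86 had 94.2% identical coding bases and a run of 605 bases without a difference, from coding base 61 to 665 in both, and KRT83, another hair keratin, was 93.3% identical to KRT81. The place where the shared run ends is shown, since reads from such stretches fit both genes, from coding base 606 to 725, which crosses an intron in both genes (chr12:52288371-52289248, minus strand, for KRT81 and chr12:52304138-52305017, plus strand, for KRT86). Capitals mark the 2 bases that differ.
KRT81: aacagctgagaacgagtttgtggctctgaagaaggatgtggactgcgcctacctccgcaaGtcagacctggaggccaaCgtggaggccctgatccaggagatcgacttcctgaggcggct
KRT86: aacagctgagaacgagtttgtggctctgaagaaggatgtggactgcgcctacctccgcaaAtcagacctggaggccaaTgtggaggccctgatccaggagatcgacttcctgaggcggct

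At a window of 100 bases, 30.3% of the windows of the KRT81 mRNA and 28.0% of those of KRT86 also occurred in another gene, and 538 of these were shared by the pair. For KRT18, 16.6% of the windows were shared, all with the opposite strand of KRT8, whose alternative exons lie there. The share was 7.75% for KRT8, led by the pseudogene KRT8P3, 7.67% for KRT7, all with the antisense gene KRT7-AS, and 0.322% for KRT17. No window of KRT10, KRT15, KRT19 or KRT80 was shared. At 50 bases the share rose to 36.9% for KRT8 and 47.6% for KRT18, whose pseudogenes are many. Whether reads were counted by strand is not given in the sources used here, so reads from the shared part of KRT8 and KRT18, or of KRT7 and KRT7-AS, cannot be told apart, and the counts of KRT81 and KRT86 are uncertain where their sequences are the same. KRT10 also overlaps the antisense gene KRT10-AS1, by 3514 bases of their spans, and any reads where both have exons have the same limit. At 50 bases, 0.434% of the KRT10 windows were shared with another gene.

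HMGA2 itself was checked first. Its level in CPM (counts scaled to the normalised library total) was 131 and 133 with shNC, 49.5 and 58.3 with shHMGA2-1, and 25.7 and 27.6 with shHMGA2-2. It was 2.45-fold lower in shHMGA2-1 and 4.94-fold lower in shHMGA2-2 than in shNC, as the labels say, and the knockdown lines themselves differed by 2.02-fold (edgeR adjusted p = 3.07e-09). A count is called changed below when its edgeR adjusted p over all 16110 genes tested was under 0.05, and a differentially expressed gene (DEG) also changed at least 2-fold.

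The composition of the keratin mRNA differed between the lines. The summed level of the 10 genes in FPKM (counts scaled to the library total and to exon length) was 112 and 114 with shNC, 118 and 99.1 with shHMGA2-1, and 108 and 116 with shHMGA2-2, so the libraries of the 3 lines overlapped on this scale. Summed CPM was 441 and 465 in shHMGA2-2 and 366 to 429 in the other 4 libraries, and per length of the principal mRNA the sum was 229 and 247 in shHMGA2-2, 208 and 211 in shNC and 236 and 197 in shHMGA2-1, so whether shHMGA2-2 stood higher depended on the scale. KRT8 rose in shHMGA2-2, KRT7 rose in shHMGA2-1, KRT80 fell further in shHMGA2-1 than in shHMGA2-2, and KRT19 and KRT81 fell in both knockdown lines and further in shHMGA2-2. KRT18 and KRT10 differed by at most 1.25-fold in any comparison.

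The counts of changed keratins were read against those of all genes. The 10 genes were chosen with earlier results of these data known, so the shares and medians below are a description only. KRT17 and KRT86 did not pass the filter on low counts, which leaves 8 of the 10 tested. In shHMGA2-1 against shNC, 1 keratin was higher and 5 were lower, where 15.8% of all genes tested were higher and 17.6% lower. The DEGs were 2, both lower (8.49% of all genes tested). In shHMGA2-2 against shNC, 2 were higher and 5 lower (29.5% and 29.2% of all genes), with 2 DEGs in each direction (21.3% of all genes). Between the knockdown lines, 3 were higher in shHMGA2-2 and 3 lower (24.5% and 25.7% of all genes), and 5 were DEGs (15.1%). The median log2 fold change of the 8 genes was -0.48 in shHMGA2-1 and -0.29 in shHMGA2-2, beside 0.01 and 0.03 over all genes tested. Both comparisons use the same shNC libraries. With limma on log2(FPKM + 1), KRT80 alone was called in shHMGA2-1, and without shNC replicate 1 4 keratins were called in shHMGA2-2. With both knockdown lines set as a single group of 4 libraries against shNC, none of the 8 was called by edgeR (5.26% of all genes were), the adjusted p ran from 0.230 to 0.948, 0 had an unadjusted p under 0.05, and DESeq2 and limma also called 0.

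**Figure D1:**
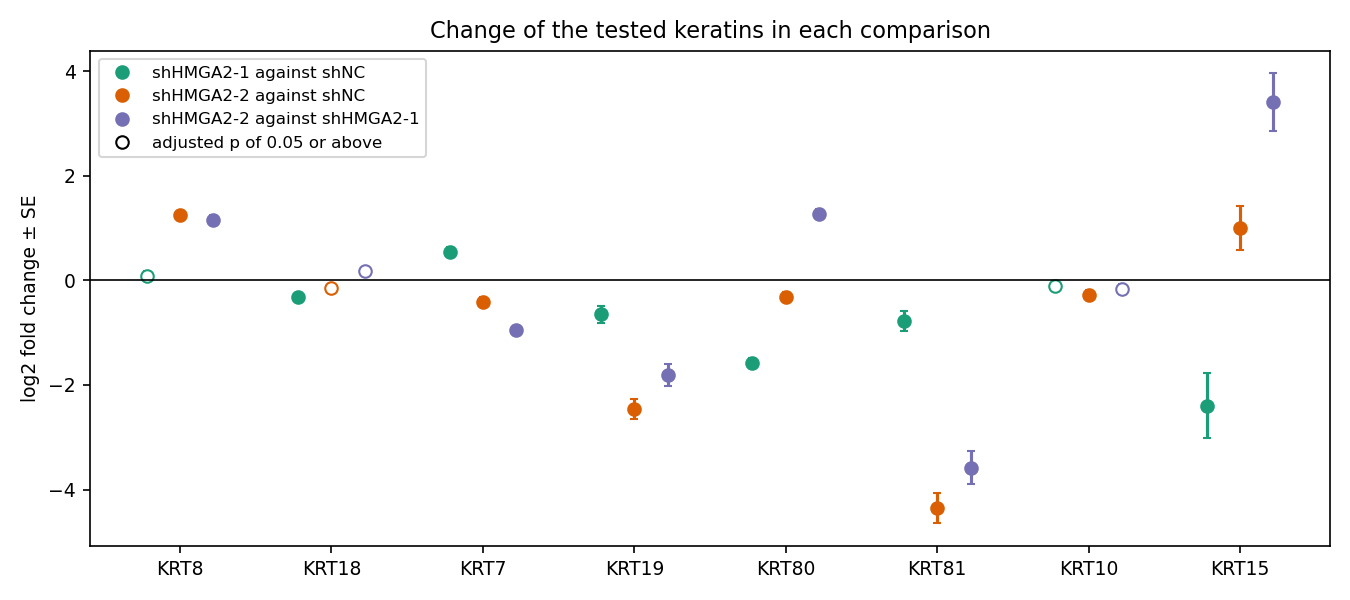
Log2 fold change with its standard error (y axis) of the 8 tested keratins in shHMGA2-1 against shNC, shHMGA2-2 against shNC and shHMGA2-2 against shHMGA2-1. Open points have an adjusted p of 0.05 or above. KRT7, KRT8, KRT15, KRT19, KRT80 and KRT81 take different signs or sizes in the knockdown lines.

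KRT8 and KRT18, partners in the filaments of simple epithelia, did not move together. KRT8 (ENSG00000170421) had 1327 and 1247 counts with shNC, 1561 and 1329 with shHMGA2-1 and 3061 and 3417 with shHMGA2-2. The shHMGA2-2 libraries were far above the other 4, while those of shNC and shHMGA2-1 overlapped in CPM. KRT8 was 2.38-fold higher in shHMGA2-2 than in shNC (log2 1.25 ± 0.08 SE, edgeR adjusted p = 1.65e-12) and 2.24-fold higher than in shHMGA2-1 (log2 1.16 ± 0.08, adjusted p = 9.62e-12). In shHMGA2-1 its log2 difference from shNC was 0.09 ± 0.08, which did not pass the test (adjusted p = 0.448).

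KRT18 (ENSG00000111057), the type I partner, had 1813 and 1947 counts with shNC, 1700 and 1485 with shHMGA2-1 and 1759 and 1853 with shHMGA2-2. It was the lowest in the shHMGA2-1 libraries, and its CPM there, 87.5 and 98.0, did not overlap the 112 and 120 of shNC. KRT18 fell 1.25-fold in shHMGA2-1 (log2 -0.32 ± 0.08 SE, edgeR adjusted p = 0.0025), but this call was lost when shNC replicate 2 was left out (adjusted p = 0.0917). Against shNC its log2 difference in shHMGA2-2 was -0.14 ± 0.08 (adjusted p = 0.129), and between the knockdown lines it was 0.18 ± 0.08 (adjusted p = 0.0576). The first of these passed without either shHMGA2-1 library (adjusted p = 0.0373 and 0.0372), and the second passed without shHMGA2-1 replicate 1 (adjusted p = 0.00298), under upper quartile scaling (adjusted p = 0.0162) and with limma at a mean FPKM of at least 1 (adjusted p = 0.0475).

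The ratio of the KRT8 level to the KRT18 level, both in FPKM, was 0.326 and 0.286 with shNC, 0.409 and 0.399 with shHMGA2-1, and 0.776 and 0.823 with shHMGA2-2. The libraries of the 3 lines did not overlap in this ratio. FPKM divides by all annotated exon bases of a gene, 6881 for KRT8 and 3069 for KRT18, whereas the principal mRNAs have 2126 and 1562 bases. Per length of the principal mRNA the ratio averaged 0.504 in shNC, 0.666 in shHMGA2-1 and 1.32 in shHMGA2-2. So KRT8 ranked second behind KRT18 in shHMGA2-2 by FPKM and first by principal mRNA length, while the ratio between lines did not depend on the length used. The pseudogene KRT8P3, which shares the most windows with KRT8, had 1 and 6 counts with shNC, 2 and 2 with shHMGA2-1 and 3 and 2 with shHMGA2-2.

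KRT7 (ENSG00000135480), a type II keratin of ducts and glands, went opposite ways in the knockdown lines. It had 1652 and 1664 counts with shNC, 2883 and 2247 with shHMGA2-1 and 1261 and 1386 with shHMGA2-2, so the libraries of the 3 lines did not overlap. The shHMGA2-1 libraries were the furthest apart, at 166 and 132 CPM. KRT7 was 1.46-fold higher in shHMGA2-1 than in shNC (log2 0.55 ± 0.09 SE, edgeR adjusted p = 2.29e-05), 1.32-fold lower in shHMGA2-2 (log2 -0.41 ± 0.09, adjusted p = 0.000406) and 1.94-fold lower in shHMGA2-2 than in shHMGA2-1 (adjusted p = 2.34e-09). KRT7-AS, on the opposite strand, had 30 and 29 counts with shNC, 32 and 29 with shHMGA2-1 and 15 and 23 with shHMGA2-2. It passed the test in none of these comparisons. For KRT7, the calls in both comparisons with shNC were lost with limma on log2(FPKM + 1) (adjusted p = 0.0785 in shHMGA2-1).

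KRT19 (ENSG00000171345), a type I keratin of ductal cells, was lower in both knockdown lines. The counts were 197 and 209 with shNC, 145 and 128 with shHMGA2-1 and 32 and 46 with shHMGA2-2, with no overlap between lines. It fell 1.57-fold in shHMGA2-1 (log2 -0.65 ± 0.16 SE, edgeR adjusted p = 0.00278) and 5.49-fold in shHMGA2-2 (log2 -2.46 ± 0.20, adjusted p = 1.02e-10). The step between the knockdown lines was 3.50-fold (adjusted p = 7.97e-08). The call in shHMGA2-1 against shNC was lost with limma on log2(FPKM + 1) (adjusted p = 0.0977).

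KRT80 (ENSG00000167767) was the keratin with the largest fall in shHMGA2-1 among those above 1 FPKM. It had 927 and 906 counts with shNC, 331 and 314 with shHMGA2-1 and 791 and 771 with shHMGA2-2, and the libraries of each line lay close together and apart from the others. KRT80 was 3.00-fold lower in shHMGA2-1 (log2 -1.59 ± 0.10 SE, edgeR adjusted p = 5.02e-12) and 1.24-fold lower in shHMGA2-2 (log2 -0.31 ± 0.09, adjusted p = 0.00461), a difference of 2.42-fold between the knockdown lines (adjusted p = 9.00e-11). The smaller fall was lost without shNC replicate 1 (adjusted p = 0.0505), without shHMGA2-2 replicate 2 (adjusted p = 0.0585) and under upper quartile scaling (adjusted p = 0.0632). The antisense gene LINC00592, which spans KRT80, had 0 to 3 counts per library.

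Among the 8 tested of the 10 keratins, the hair keratin KRT81 (ENSG00000205426) had the largest change in both comparisons with shHMGA2-2. KRT15 and KRT80 changed more in shHMGA2-1 against shNC. The KRT81 counts were 217 and 232 with shNC, 165 and 113 with shHMGA2-1 and 5 and 18 with shHMGA2-2, so that little of it was left in the latter line. KRT81 was 1.71-fold lower in shHMGA2-1 (log2 -0.77 ± 0.19 SE, edgeR adjusted p = 0.00262), 20.4-fold lower in shHMGA2-2 (log2 -4.35 ± 0.29, adjusted p = 3.42e-12) and 12.0-fold lower in shHMGA2-2 than in shHMGA2-1 (adjusted p = 7.33e-10). The libraries of shHMGA2-2 were apart, and the log2 change from shNC was -3.73 without its replicate 1 and -5.52 without its replicate 2. The values against shHMGA2-1 were then -2.96 and -4.74. For KRT81, the call in shHMGA2-1 against shNC was lost with limma on log2(FPKM + 1). KRT86 (ENSG00000170442), its near-identical neighbour, had only 12 and 3 counts with shNC, 5 and 4 with shHMGA2-1 and 2 and 4 with shHMGA2-2, too few to be tested. KRT83 had 1 count in a single shHMGA2-2 library and none in the others. How many reads of the identical stretches shown earlier went to KRT81 or KRT86, or were dropped, was not tested.

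A few genes related to the hair keratins, not taken from a list, were looked at beside KRT81. The pseudogene KRT87P, which overlaps KRT86 on the opposite strand and shares 17 of the 100-base windows of KRT81, had 26 and 20 counts with shNC, 23 and 33 with shHMGA2-1 and 4 and 4 with shHMGA2-2 (5.92-fold lower than in shNC, edgeR adjusted p = 0.000341). Keratin-associated proteins cross-link the keratins of hair, and 2 of their 94 genes exceeded the limit of 3 counts in a library. KRTAP2-3 had 73 and 98 counts with shNC, 86 and 103 with shHMGA2-1 and 3 and 13 with shHMGA2-2, which was 11.1-fold lower than in shNC (adjusted p = 1.83e-08). KRTAP4-8 had 11 and 12 counts with shNC, 8 and 10 with shHMGA2-1 and none with shHMGA2-2, at least 4.05-fold lower against the limit of 3 counts per library. KRT34, a type I hair keratin, did not follow them, with 9 and 18 counts with shNC, 8 and 9 with shHMGA2-1 and 8 and 9 with shHMGA2-2. KRTAP2-3 and KRTAP4-8 were named after their values were seen, and neither passed the test in shHMGA2-1 (adjusted p = 0.873 and 0.614).

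KRT15 (ENSG00000171346), a basal keratin, was present at low counts and took opposite signs in the knockdown lines. It had 14 and 17 counts with shNC, 4 and 2 with shHMGA2-1 and 31 and 35 with shHMGA2-2. The lines did not overlap, but each library held 35 counts or fewer. KRT15 was 5.28-fold lower in shHMGA2-1 (log2 -2.40 ± 0.62 SE, edgeR adjusted p = 0.00403) and 10.6-fold higher in shHMGA2-2 than in shHMGA2-1 (adjusted p = 1.57e-05). The fall in shHMGA2-1 was lost with limma on log2(FPKM + 1) (adjusted p = 0.0917). The ratio of the summed counts per library total was 5.22 for shNC over shHMGA2-1 (31 and 6 counts, 95% exact Clopper-Pearson interval 2.15 to 15.3, counting error only). Its 2.01-fold higher value in shHMGA2-2 than in shNC (log2 1.00 ± 0.41, adjusted p = 0.041) was lost when any of the 4 libraries compared was left out (adjusted p = 0.0772 to 0.160) and with DESeq2 (adjusted p = 0.274). KRT15 and KRT19, neighbours on the same strand, thus had log2 values of 1.00 and -2.46 in shHMGA2-2 against shNC.

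KRT10 (ENSG00000186395), a keratin of the upper epidermis, was nearly level. It had 633 and 612 counts with shNC, 645 and 578 with shHMGA2-1 and 516 and 572 with shHMGA2-2. In CPM the shHMGA2-2 libraries, at 30.5 and 32.8, were the lowest. KRT10 was 1.21-fold lower in shHMGA2-2 than in shNC (log2 -0.28 ± 0.10 SE, edgeR adjusted p = 0.0188), a call that was lost with DESeq2 (adjusted p = 0.0606), with upper quartile scaling (adjusted p = 0.166), with limma on log2(FPKM + 1) (adjusted p = 0.248) and without shNC replicate 1 (adjusted p = 0.116), shNC replicate 2 (adjusted p = 0.0699) or shHMGA2-2 replicate 1 (adjusted p = 0.149). In shHMGA2-1 its log2 difference was -0.10 ± 0.10 (adjusted p = 0.446). The antisense gene KRT10-AS1 had 471 and 484 counts with shNC, 367 and 357 with shHMGA2-1 and 351 and 357 with shHMGA2-2, and fell 1.39-fold and 1.43-fold (adjusted p = 0.000969 and 0.000201). It also passed with both knockdown lines as a single group (adjusted p = 0.0421). KRT17 (ENSG00000128422), a basal keratin, was not tested, with 0 and 3 counts with shNC, 7 and 10 with shHMGA2-1 and 7 and 0 with shHMGA2-2.

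By FPKM, KRT18 was highest in shNC at 36.1 ± 1.81 FPKM (SD, n = 2), followed by KRT7 at 24.4 ± 0.113, KRT10 at 16.9 ± 0.41, KRT80 at 12.4 ± 0.198, KRT8 at 11.0 ± 0.488, KRT81 at 6.86 ± 0.318 and KRT19 at 5.12 ± 0.212. Neighbours in this order did not overlap. KRT86, KRT15 and KRT17 were at 0.18, 0.155 and 0.03 FPKM, and the libraries of KRT86 and KRT15 overlapped. In shHMGA2-1, KRT7 led at 37.4 ± 6.49 FPKM before KRT18 at 30.3 ± 2.84, with KRT10 next and then KRT8 at 12.2 ± 1.36. Below them KRT81 at 4.20 ± 1.10 overlapped both KRT80 at 4.31 ± 0.156 and KRT19 at 3.41 ± 0.297. In shHMGA2-2 KRT18 led at 35.6 ± 1.12 FPKM before KRT8 at 28.5 ± 2.06, KRT7 at 20.0 ± 1.22, KRT10 at 15.2 ± 1.03 and KRT80 at 10.8 ± 0.255, and KRT19 at 1.01 ± 0.255 stood above KRT81 at 0.36 ± 0.283, which overlapped KRT15 at 0.335 ± 0.0212. The order turned with the length used. Per length of the principal mRNA, KRT8 stood above KRT10 in every library (36.8 and 34.5 against 17.6 and 17.0 in shNC, and 42.8 and 36.5 against 17.7 and 15.9 in shHMGA2-1), and KRT19 (8.35 and 8.85) stood above KRT81 (6.63 and 7.08) in shNC.

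Within the type II chains, the share of KRT8 in the summed FPKM was 20.6% and 19.6% with shNC, 20.4% and 21.8% with shHMGA2-1 and 47.1% and 48.2% with shHMGA2-2. KRT7 made up 44.2% and 44.9% with shNC, 64.9% and 63.3% with shHMGA2-1 and 33.4% and 33.6% with shHMGA2-2. KRT80 held 22.7% and 22.4% with shNC, 6.83% and 8.11% with shHMGA2-1 and 19.2% and 17.1% with shHMGA2-2. Thus KRT7 was the leading type II keratin in shNC and shHMGA2-1, and KRT8 in shHMGA2-2. Per length of the principal mRNA the KRT8 share was 32.4% and 31.0% with shNC, 28.8% and 30.5% with shHMGA2-1 and 60.8% and 61.6% with shHMGA2-2. Within type I, KRT18 made up 59.8% to 62.8% in shNC and shHMGA2-1 and 68.8% and 67.6% in shHMGA2-2, while KRT19 went from 8.70% and 8.85% in shNC to 6.77% in both shHMGA2-1 libraries and 1.64% and 2.21% in shHMGA2-2. The type II to type I ratio of FPKM was 0.965 and 0.917 with shNC, 1.21 and 1.10 with shHMGA2-1 and 1.13 and 1.15 with shHMGA2-2, and per length of the principal mRNA it was 1.20 and 1.12, 1.70 and 1.55, and 1.69 and 1.74, so shNC lay below 1 on the first scale and above it on the second.

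Few other keratins were detected. Of the 44, 30 had 0 counts in all libraries and 40 had at most 3 counts in each, which is 0.175 to 0.182 CPM. KRT16, a type I keratin of wounded epidermis, had 0 and 0 counts with shNC, 1 and 1 with shHMGA2-1 and 30 and 17 with shHMGA2-2. It passed the filter only through shHMGA2-2, where it was at least 7.44-fold higher than shNC and at least 7.86-fold higher than shHMGA2-1 against the limit of 3 counts per library. KRT9 had 11 and 8 counts in shHMGA2-2 and none in the other 4 libraries (at least 3.00-fold higher than shNC), and KRT34 had 8 to 18 counts in every library, both too few to be tested. KRT71 had 5 counts in shHMGA2-1 replicate 1 and none elsewhere. KRT5, KRT6B and KRT6C, keratins of basal and stratified epithelia, were among those at 0. KRT9, KRT34 and KRT71, which complete the 4 genes above 3 counts in a library, and these 3 genes at 0 were named after their values were seen. All 149 keratin pseudogenes together had 1.12 to 1.61 counts for each 100 counts of the 10 keratins.

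The genes whose pattern over the 3 line means was most like that of KRT8 were GRPR, H3P4 and FXYD6, with Euclidean distances of 0.0131 to 0.0146 in centred log2 CPM among 16109 genes. KRT18 ranked 7699 on the same list. The nearest to KRT18 were CRYZ, BSG and GINS1 at distances of 0.00636 to 0.0103, and KRT8 ranked 13903. With only 3 line means many genes come close, so this is a description.

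Keratins share the cytoplasm with other intermediate filament proteins, and in MDA-MB-231 VIM (vimentin, the mesenchymal filament) was far above them. The VIM level was 418 and 432 FPKM with shNC, 429 and 417 with shHMGA2-1 and 411 and 411 with shHMGA2-2, against 118 at most for all 10 keratins together. VIM was 1.12-fold lower in shHMGA2-2 than in shNC on normalised counts (log2 -0.17 ± 0.05 SE, edgeR adjusted p = 0.0077) and did not pass the test in shHMGA2-1 (log2 -0.07 ± 0.05, adjusted p = 0.306). Of the 15 other intermediate filament genes, which include the nuclear lamins LMNA, LMNB1 and LMNB2, 7 were tested. In shHMGA2-1 1 was higher and 2 lower, and all of these were lamins (LMNB1 higher, LMNA and LMNB2 lower). No other tested gene of the list passed there. In shHMGA2-2 2 were higher and 5 lower, with the lamins called in the same directions. Over all genes tested, 15.8% were higher and 17.6% lower in shHMGA2-1, and 29.5% and 29.2% in shHMGA2-2. SYNM, which encodes synemin, rose from 13.3 and 13.7 CPM in shNC to 36.3 and 32.5 in shHMGA2-2 (log2 1.35 ± 0.12, adjusted p = 9.82e-10). NES, which encodes nestin, fell from 5.17 and 5.05 CPM to 1.18 and 1.09 (log2 -2.16 ± 0.26, adjusted p = 1.46e-07).

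Among the genes that link keratin filaments to junctions or act on keratins, 20 of 22 were tested, and 4 were higher and 6 lower in shHMGA2-1, with 5 higher and 11 lower in shHMGA2-2 (all genes: 15.8% and 17.6%, then 29.5% and 29.2%). DSP (desmoplakin, which anchors keratin filaments at desmosomes) was at 22.8 and 21.7 CPM with shNC, 53.7 and 64.3 with shHMGA2-1 and 80.2 and 78.3 with shHMGA2-2. DSP rose in both lines (log2 1.41 ± 0.10 and 1.83 ± 0.10 SE, edgeR adjusted p = 7.44e-11 and 7.98e-14), as did JUP (plakoglobin, of the same plaques) with log2 changes of 2.25 ± 0.19 and 1.48 ± 0.20 (adjusted p = 8.59e-10 and 6.61e-07). These were the 2 genes of the list called in the comparison of the single group (adjusted p = 0.0106 and 0.0329), where 5.26% of all genes tested were called. PKP2 (plakophilin 2) was at 72.8 and 75.6 CPM with shNC, 54.1 and 61.6 with shHMGA2-1 and 10.3 and 8.32 with shHMGA2-2, so it fell while DSP rose (log2 -2.99 ± 0.12 in shHMGA2-2, adjusted p = 9.19e-17). PPL (periplakin) rose in shHMGA2-2 (log2 1.37 ± 0.45, adjusted p = 0.0114) from a mean of 0.646 to 1.69 CPM. The median log2 change of the list was -0.02 and -0.25.

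Of 26 transcription factors with known roles at keratin genes or in epithelial state, 16 were tested. In shHMGA2-1 1 was higher and 7 lower, where 15.8% and 17.6% of all genes were. TP63, a regulator of basal epithelia, was the only DEG there (edgeR adjusted p = 0.0493), at means of 0.585 CPM in shNC and 0.147 in shHMGA2-1. Over all genes tested, 8.49% were DEGs in shHMGA2-1. In shHMGA2-2 3 were higher and 6 lower, where 29.5% and 29.2% of all genes were. GATA3, a luminal breast factor, had 3.57 and 2.52 CPM with shNC, 2.48 and 2.24 with shHMGA2-1 and 15.5 and 18.2 with shHMGA2-2 (log2 2.47 ± 0.19, adjusted p = 4.29e-11 against shNC). EHF, an epithelial ETS factor, had 3 and 2 counts with shNC, 0 and 1 with shHMGA2-1 and 32 and 37 with shHMGA2-2, and passed the filter only through shHMGA2-2. SNAI2, a repressor of epithelial genes, rose in shHMGA2-2 from 6.80 to 28.4 CPM (adjusted p = 2.3e-12). KLF5, which acts in basal and luminal epithelia, was at 45.7 and 46.4 CPM with shNC, 34.0 and 36.7 with shHMGA2-1 and 9.93 and 11.3 with shHMGA2-2 (log2 -2.12 ± 0.11, adjusted p = 4.33e-14). ZEB1 and ZEB2, repressors of epithelial genes, fell in shHMGA2-2 by 1.50 and 1.28 on the log2 scale. The median log2 change of the list was -0.30 in shHMGA2-1 and -0.09 in shHMGA2-2.

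**Figure D2:**
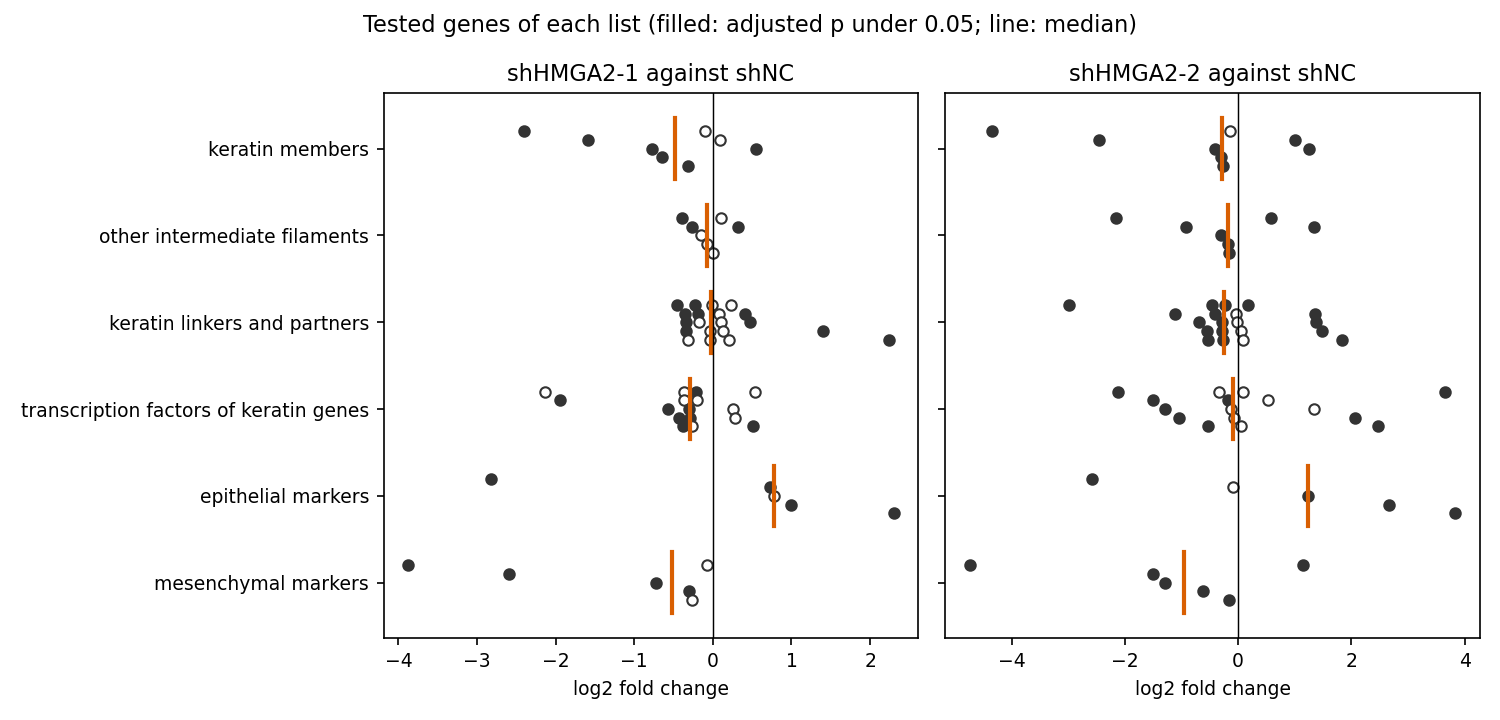
Log2 fold change (x axis) of the tested genes of 6 lists (y axis) in shHMGA2-1 against shNC (left) and shHMGA2-2 against shNC (right), with filled points for an adjusted p under 0.05 and a line at the median. The keratins spread from -2.40 to 0.55 on the left and from -4.35 to 1.25 on the right.

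Markers of epithelial and mesenchymal cells were set beside the keratins. CDH1, the defining epithelial cadherin, had at most 4 counts in a library, in a line known to lack it. The summed CPM of 10 epithelial markers was 26.3 to 28.3 in all 6 libraries, although single markers moved in opposite directions between the lines. Of the 5 tested, 3 were higher and 1 lower in each knockdown line (all genes: 15.8% and 17.6% in shHMGA2-1, 29.5% and 29.2% in shHMGA2-2). The higher genes were EPCAM, CLDN3 and CLDN7 in shHMGA2-1, and ESRP2, CLDN3 and CLDN7 in shHMGA2-2. EPCAM was at a mean of 8.40 CPM in shNC, 16.8 in shHMGA2-1 and 7.86 in shHMGA2-2 (edgeR adjusted p = 6.49e-06 and 0.625 against shNC). CLDN3 (claudin 3) had 0 and 5 counts with shNC, 15 and 12 with shHMGA2-1 and 33 and 46 with shHMGA2-2. CLDN4 (claudin 4) fell from a mean of 14.9 CPM in shNC to 2.10 and 2.50 (adjusted p = 3.35e-11 and 2.08e-11), and ESRP2 and CLDN7 were among those that rose in shHMGA2-2 (log2 2.67 ± 0.29 and 1.23 ± 0.22 SE). The summed CPM of 10 mesenchymal markers, mostly VIM, was 3111 and 3187 with shNC, 2622 and 2634 with shHMGA2-1 and 2370 and 2323 with shHMGA2-2. Of the 6 tested, 4 were lower in shHMGA2-1 (17.6% of all genes), and 1 was higher and 5 lower in shHMGA2-2 (29.5% and 29.2%). FN1 (fibronectin) fell most, from a mean of 264 CPM in shNC to 17.9 and 9.87 (edgeR adjusted p = 6.01e-20 and 4.93e-22), and S100A4 fell in shHMGA2-1 and rose in shHMGA2-2 (log2 -2.59 ± 0.29 and 1.15 ± 0.19). In bulk samples, fewer cells of a type and less RNA per cell cannot be told apart.

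Of the receptor genes that define TNBC, ESR1 had 2 to 12 counts, PGR 0 to 2, and ERBB2 1126 to 1909 per library. The summed CPM of 10 leukocyte markers was 0.884 to 1.48 in shNC and shHMGA2-1 and 86.5 and 89.0 in shHMGA2-2, where 1 gene, HLA-DRA, held 1475 and 1494 counts. Of the other markers named here, PTPRC and CD3E had 0 counts in shHMGA2-2, ITGAM had 16 and 5 counts there against 0 to 2 elsewhere, CD14 had 8 and 3 against 0 to 7, and LYZ had 2 and 0 against none. HLA-DRA rose in shHMGA2-2, as KRT8 did, while KRT19 and KRT81 fell there. The part of HLA-DRA in those keratin results was not tested.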

How the data were processed

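The authors deposited a table of raw counts and FPKM values per gene for 6 libraries of MDA-MB-231 made by mRNA capture. The submitters' processing notes name HISAT2 2.2.1, HTSeq 0.6.1 and GRCh38.p13, and the annotation and strand setting are not given in the sources used here. All FPKM values (100% within 0.011) were recomputed from the deposited counts, the summed exon sizes and the library totals, so the authors' FPKM and count values hold the same information.

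Counts were tested with edgeR 4.0.16 (R 4.3.3; filterByExpr, TMM, quasi-likelihood test) in 1 model of 3 groups over 16110 genes, with Benjamini-Hochberg adjustment over all of them. A gene was called at an adjusted p under 0.05, and DEGs also changed at least 2-fold, as in the study. The SE of a log2 fold change is its size divided by the root of the F statistic. The biological coefficient of variation was 0.0583, and 0.291 with the knockdown lines as a single group. Alternatives were DESeq2 1.42.0, limma 3.58.1 on log2(FPKM + 1) or log2(FPKM + 0.1), upper quartile scaling, no filter, a replicate block and each library left out. The fitting script was tested on simulated counts.

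Groups came from the sample titles, although the table's columns are named WT for shNC and SH2 for shHMGA2-1. Coding sequences, mRNA lengths and shared windows came from GENCODE 29 (GRCh38), in which all 10 keratins lay on the same chromosome, 5 with the same start and end and the others within 19 bases. Window matching was exact and covered both strands. Where a gene was at or under 3 counts per library in a group, a fold is given as a bound against 3 counts, which covers counting error only. The members and lists were chosen with earlier results of these data known. Named genes were the 10 keratins, tested other keratins, HMGA2, VIM, and overlapping or near-identical genes. The 3 genes nearest to KRT8 and to KRT18 were also named. In each list, up to 4 DEGs with the largest change in each comparison with shNC were named. EPCAM and the lamin genes LMNA, LMNB1 and LMNB2 were named after their values were seen.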

Additional observations from a re-analysis of the deposited data

Results flagged for a closer look

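Of the 10 keratins, 6 differed between the knockdown lines in the direct comparison of shHMGA2-2 with shHMGA2-1 (edgeR adjusted p under 0.05, from 9.62e-12 to 1.57e-05). Over all genes tested, 24.5% were higher and 25.7% lower in shHMGA2-2 in the same comparison. The log2 difference was -3.58 for KRT81, -1.81 for KRT19 and -0.96 for KRT7, which were lower in both shHMGA2-2 libraries than in both shHMGA2-1 libraries. It was 1.16 for KRT8, 1.27 for KRT80 and 3.40 for KRT15, which were higher in both. These equal the differences between the changes from shNC, since both changes use the same control libraries. KRT10 and KRT18 were not called in this comparison (adjusted p = 0.156 and 0.0576). With 2 libraries a line, no library could be tested for standing apart.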

How the results depend on the processing

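The number of keratins called in shHMGA2-1 (6 of 8) dropped to 1 with limma on log2(FPKM + 1), to 1 with log2(FPKM + 0.1) and to 3 with a mean FPKM of at least 1, and was 5 to 6 with a library left out. In shHMGA2-2 it went from 7 to 4 with limma on log2(FPKM + 0.1), to 4 with a mean FPKM of at least 1, and to 4 to 8 with a library left out, the lowest without shNC replicate 1. In the same comparison it was 5 with DESeq2, with upper quartile scaling and with limma on log2(FPKM + 1). Between the knockdown lines the number was 6 or 7 under every alternative, and 0 for the single group. Signs turned for the uncalled KRT8 in shHMGA2-1, which was -0.016 without its replicate 1 in a range of -0.016 to 0.18 with a library left out, and, in the single group, for KRT7, which was -0.10 without shHMGA2-1 replicate 1 in a range of -0.10 to 0.30, and for KRT15, which was -0.10 with limma on log2(FPKM + 0.1) and -0.40 to 0.50 with a library left out. Limma on FPKM also lost KRT7, KRT15, KRT18, KRT19 and KRT81 in shHMGA2-1 (adjusted p = 0.0785, 0.0917, 0.169, 0.0977 and 0.208 with log2(FPKM + 1)) and KRT7 and KRT10 in shHMGA2-2 (0.221 and 0.248). The causes were not tested. Of 412 alternative values for single keratins, 367 kept direction and side of the threshold.

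Over all genes, calls in shHMGA2-1 went from 5388 to 2157, 2344 and 3550 with limma and to 3432 or 3283 without shNC replicate 1 or 2. Its DEGs went from 1367 to 289, 833 and 291 with limma, those of shHMGA2-2 from 3432 to 1256 with log2(FPKM + 1) and 1097 with a mean FPKM of at least 1, and those between the knockdown lines from 2432 to 798 and 712. For the single group, 848 calls became 1972 with DESeq2, 266 and 374 with limma and 4 to 822 with a library left out, with 4 without either shNC library. Upper quartile scaling moved the median log2 change of all genes in shHMGA2-2 from 0.03 to 0.14, and the share of calls that were higher from 47.2% to 58.8% in shHMGA2-1 and from 50.3% to 59.9% in shHMGA2-2. The KRT8 to KRT18 ratio of levels, 0.306, 0.404 and 0.799 in shNC, shHMGA2-1 and shHMGA2-2 by FPKM, was 0.504, 0.666 and 1.32 per principal mRNA length, an alternative added after seeing the data.

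The correlation of replicate deviations over all tested genes was -0.022, 0.00135 and -0.144 between pairs of lines. Counting noise enters these values, so whether replicate numbers pair the libraries was not settled. With the replicate block, 6 keratins were called in shHMGA2-1, 6 in shHMGA2-2, 6 between the knockdown lines and 0 in the single group. KRT15 in shHMGA2-2 was the call lost (adjusted p = 0.0638), and over all genes the single group went from 848 to 152 calls.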
